A study of Mus musculus with 9 samples.

Results

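In 10 genes the RNA level of one primed group of CD8 T cells lay above the naive level and that of the other primed group below it. They were picked for that pattern from the 23936 genes with a symbol in a table of FPKM, fragment counts scaled to transcript length and library total, so their levels in all 3 groups are a description and carry no test. The means of all 3 groups stood in the order MLN-primed, naive, spleen-primed in 5.55% of the genes tested and in the opposite order in 4.1%. Ipo4, Mettl1, Smyd5, Atad3a and Car2 were highest in MLN-primed and lowest in spleen-primed cells, and Sema4a, Lmna, Fcgrt, BC021614 and Ifitm10 were highest in spleen-primed and lowest in MLN-primed cells. All 10 were among the 10185 genes that reached 1 FPKM in at least 3 libraries and entered the fit.

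The study sequenced RNA of OT-I cells, mouse CD8 T cells with a transgenic receptor for an ovalbumin peptide, in 3 groups of 3 libraries. MLN-primed cells came from the mesenteric lymph node and have titles with the word oral, spleen-primed cells came from the spleen and have titles with iv, and naive cells came from the spleen and were not primed. Organ and title word change together between the primed groups, so their effects cannot be told apart, and naive cells were taken from the spleen alone. Age, sex, the time after priming, the gate and whether a library holds 1 animal or several are not given in the labels. P-values therefore reflect only how far these libraries differ, and that can be technical. In bulk RNA a smaller number of cells of a type and less RNA per cell cannot be told apart.

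The genes serve different parts of the cell. Importins carry proteins into the nucleus, the METTL1 enzyme methylates guanine in transfer RNA, SMYD proteins methylate lysines, and ATAD3A organises mitochondrial DNA and the inner mitochondrial membrane. A growing T cell draws on nuclear import, transfer RNA modification and mitochondrial upkeep when it makes protein at a high rate. Semaphorin 4A is a cell surface ligand that acts on T cells in mice, A-type lamins stiffen the nuclear envelope, and the neonatal Fc receptor recycles IgG and albumin within cells.

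Bases upstream of annotated starts are shown for 3 of the genes. Sema4a and Lmna lie next to each other in the genome, and Smyd5 is the gene highest in MLN-primed cells with the most motif matches in its window. Each run is the first window listed for the gene, the 250 bases before the start, 5′ to 3′ on the strand of the gene, from RefSeq on GRCm38.p6, with capitals for matches of the motifs named after the sequences. The Sema4a window is chr3:88461183-88461432 on the minus strand, the Lmna window chr3:88503353-88503602 on the minus strand and the Smyd5 window chr6:85431726-85431975 on the plus strand. The Lmna gene reaches to 88509932, so its window lies within the gene, before a start inside it and not before its outer end.
Sema4a: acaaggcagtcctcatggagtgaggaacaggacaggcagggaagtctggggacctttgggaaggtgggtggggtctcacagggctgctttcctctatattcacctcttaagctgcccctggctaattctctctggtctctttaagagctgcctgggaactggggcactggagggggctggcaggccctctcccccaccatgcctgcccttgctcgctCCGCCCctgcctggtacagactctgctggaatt
Lmna: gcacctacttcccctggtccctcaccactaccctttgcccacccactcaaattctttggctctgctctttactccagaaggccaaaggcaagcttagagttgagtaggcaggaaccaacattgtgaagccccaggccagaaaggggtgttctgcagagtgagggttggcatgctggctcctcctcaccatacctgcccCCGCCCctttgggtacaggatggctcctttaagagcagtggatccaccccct
Smyd5: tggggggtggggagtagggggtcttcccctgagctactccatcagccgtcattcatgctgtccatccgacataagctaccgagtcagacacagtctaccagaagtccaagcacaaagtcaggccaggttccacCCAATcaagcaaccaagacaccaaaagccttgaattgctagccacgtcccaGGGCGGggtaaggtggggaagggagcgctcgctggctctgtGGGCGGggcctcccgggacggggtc
The motifs searched on both strands were the E-box CACGTG, the interferon response element core, the AP-1 site TGANTCA, the T-box site TCACACC, the CRE TGACGTCA, the CCAAT box CCAAT, the GC box GGGCGG and the NRF1 core. A GC box began 33 bases before the start in the Sema4a window and 52 bases before it in the Lmna window, both on the opposite strand, and the Smyd5 window held GC boxes 66 and 25 bases and a CCAAT box 117 bases before the start. GC boxes are common, at 32.7% of all 32851 windows of this length, and CCAAT boxes were in 33.8%. RefSeq windows were at hand for 8 of the 10 genes. The E-box was in none of those genes' windows, and 6.86% of all genes with windows held it in at least 1. An AP-1 site was in a window of Ipo4 and of Ifitm10, and 7.82% of all genes held one. A match says only that these letters are there.

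The genes of nuclear import, transfer RNA methylation, lysine methylation and mitochondrial upkeep that were highest in MLN-primed cells had like profiles. The order of their groups follows from the choice of the genes, so this likeness is no separate result. Ipo4 (gene ID 75751), an importin known to carry histones and ribosomal proteins, was at 16.9, 15.1 and 15.8 FPKM in the MLN-primed, at 6.17, 6.35 and 6.61 FPKM in the spleen-primed and at 9.66, 9.82 and 11.3 FPKM in the naive libraries. Its 3 groups did not overlap, and the spleen-primed libraries were the lowest. Mettl1 (gene ID 17299), the catalytic subunit of the enzyme that makes 7-methylguanosine in transfer RNA, was at 24.4, 20.2 and 24.1 FPKM in MLN-primed libraries, at 9.73, 9.39 and 9.52 FPKM in spleen-primed and at 14.7, 16.6 and 16.8 FPKM in naive libraries. Here too every MLN-primed library stood above, and every spleen-primed library below, all naive ones.

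Smyd5 (gene ID 232187), a lysine methyltransferase, was at 14.6, 13.98 and 14.8 FPKM in MLN-primed libraries, at 5.33, 6.10 and 6.42 FPKM in spleen-primed and at 7.51, 7.42 and 9.03 FPKM in naive libraries. The spleen-primed values lay close under the naive ones without meeting them. Atad3a (gene ID 108888), an ATPase of the inner mitochondrial membrane, was at 20.7, 20.5 and 21.9 FPKM in MLN-primed libraries, at 7.50, 9.85 and 9.89 FPKM in spleen-primed and at 11.7, 12.1 and 13.8 FPKM in naive libraries. Its MLN-primed libraries were the most alike, and its groups did not overlap. In ratios of mean FPKM, MLN-primed over spleen-primed cells, Ipo4 was at 2.501, Smyd5 at 2.43, Mettl1 at 2.40 and Atad3a at 2.32. The range of these genes was narrow, while Car2, also highest in MLN-primed cells, was at 5.35.

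On the scale of the fit, log2(FPKM + 1), which understates differences of low genes, MLN-primed minus naive was 0.59 ± 0.08 for Ipo4, 0.49 ± 0.09 for Mettl1, 0.79 ± 0.10 for Smyd5 and 0.70 ± 0.11 for Atad3a (± SE of the model). Spleen-primed minus naive was -0.61, -0.69, -0.37 and -0.43 for these genes in that order, with the same SE for each gene. Mettl1 lay farther from naive on the spleen-primed side and Smyd5 on the MLN-primed side, under every setting tried. Atad3a was farther on the MLN-primed side except under quantile normalisation, and for Ipo4 both distances differed by less than the SE in the main fit. Quantile normalisation brought Mettl1 in MLN-primed cells down to 0.22 above naive.

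Car2 (gene ID 12349), the cytosolic carbonic anhydrase that turns CO2 into bicarbonate, had the same order of means but the widest spread of the 10 genes. It was at 6.25, 8.04 and 9.97 FPKM in MLN-primed libraries, at 1.44, 1.53 and 1.56 FPKM in spleen-primed and at 3.61, 1.45 and 6.65 FPKM in naive libraries. The primed groups did not overlap, with a ratio of mean FPKM of 5.35, while naive 3 lay within the MLN-primed range and naive 2 within the spleen-primed range. The log2 difference was 1.02 ± 0.33 for MLN-primed minus naive and -0.82 ± 0.33 for spleen-primed minus naive (SE). Without naive 2 these were 0.59 and -1.24, and without naive 3 they were 1.42 and -0.42. Red cells also hold this enzyme, and the summed FPKM of 11 red cell and platelet markers was 44.6, 14.4 and 88.2 in naive 1, 2 and 3, the same order as Car2 in those libraries. In MLN-primed 1, 2 and 3 that sum was 0.357, 97.4 and 0.394 FPKM, an order that Car2 did not have. In spleen-primed 1, 2 and 3 the sum was 38.5, 51.9 and 4.84 FPKM, while Car2 was at 1.44, 1.53 and 1.56 FPKM. The part of such RNA in the naive values was not tested.

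**Figure D1:**
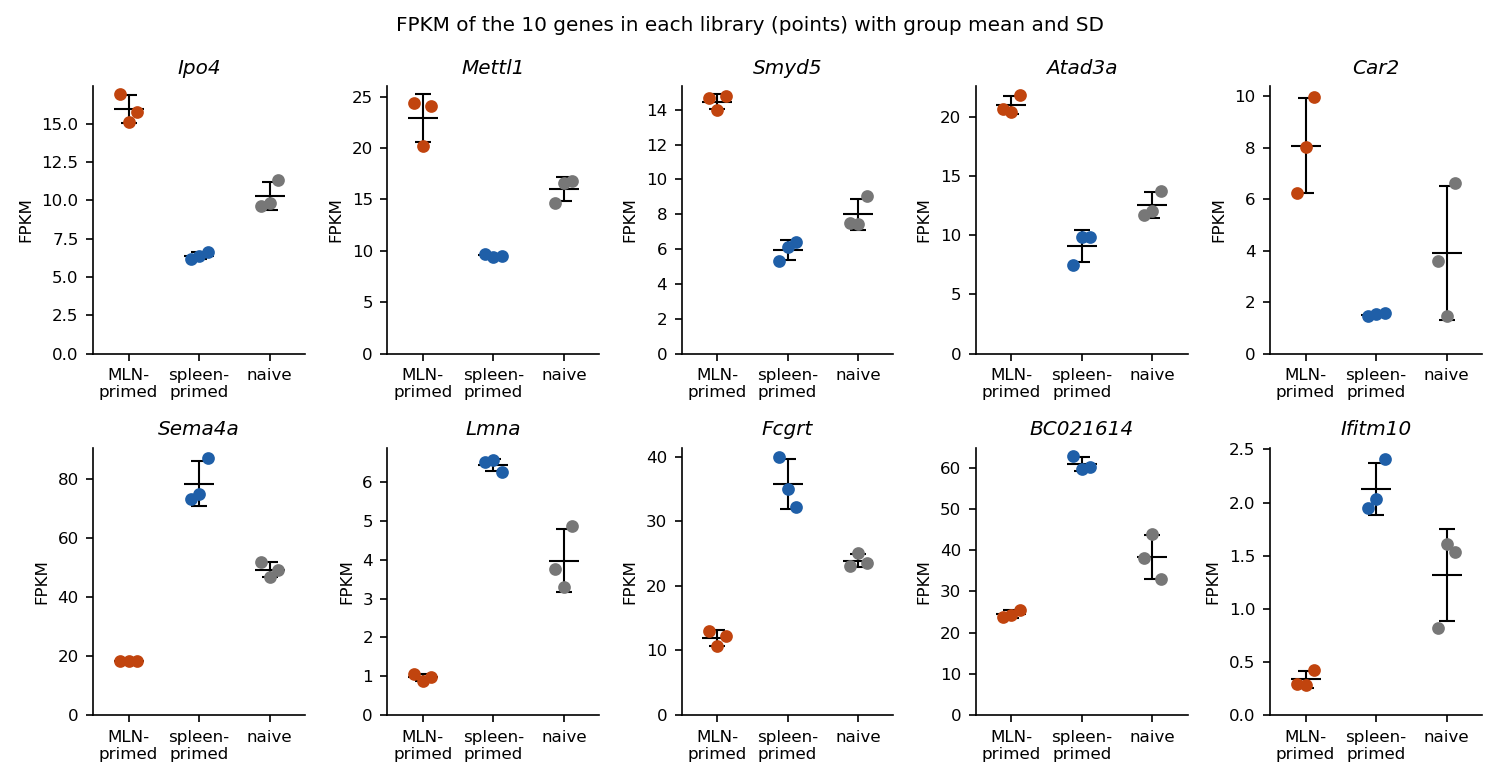
FPKM (linear axis, from 0) of each of the 10 genes in the MLN-primed, spleen-primed and naive libraries; points are libraries, bars are the mean and SD of 3. In the upper row MLN-primed libraries are highest and in the lower row spleen-primed libraries, and only in Car2 does naive overlap the primed groups, with naive values of 1.45 to 6.65 FPKM.

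Sema4a (gene ID 20351), a membrane-bound semaphorin, was at 18.3, 18.2 and 18.2 FPKM in MLN-primed libraries, at 73.3, 75.2 and 87.4 FPKM in spleen-primed and at 51.9, 46.8 and 49.4 FPKM in naive libraries. Its mean was 4.31-fold lower in MLN-primed than spleen-primed cells and the MLN-primed libraries were nearly identical. Lmna (gene ID 16905), which encodes lamins A and C, was at 1.06, 0.886 and 0.984 FPKM in MLN-primed libraries, at 6.52, 6.57 and 6.28 FPKM in spleen-primed and at 3.76, 3.31 and 4.88 FPKM in naive libraries. That was 6.60-fold lower in MLN-primed than spleen-primed cells, at low levels throughout.

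Fcgrt (gene ID 14132), the alpha chain of the neonatal Fc receptor, was at 13.0, 10.6 and 12.2 FPKM in MLN-primed libraries, at 40.0, 35.1 and 32.3 FPKM in spleen-primed and at 23.1, 25.1 and 23.6 FPKM in naive libraries. Its groups stood well apart, with the lowest spleen-primed library above the highest naive one. BC021614 (gene ID 225884), which RefSeq lists under that ID as Gstp3, a symbol of the pi class of glutathione S-transferases, was at 23.8, 24.3 and 25.5 FPKM in MLN-primed libraries, at 62.9, 59.6 and 60.2 FPKM in spleen-primed and at 38.0, 43.8 and 33.1 FPKM in naive libraries. Its primed libraries were tight and its naive libraries wider, with no overlap. Ifitm10 (gene ID 320802), a member of the interferon-induced transmembrane family, was near the lower limit, at 0.294, 0.281 and 0.428 FPKM in MLN-primed libraries, at 1.95, 2.04 and 2.41 FPKM in spleen-primed and at 0.817, 1.61 and 1.53 FPKM in naive libraries. It reached 1 FPKM in 3 libraries through the groups in which it was high, so its passing the filter says nothing of its pattern. Its mean was 6.37-fold lower in MLN-primed than spleen-primed cells, close to the ratio of Lmna and above that of Sema4a.

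MLN-primed minus naive was -1.39 ± 0.08 for Sema4a, -1.32 ± 0.11 for Lmna, -0.95 ± 0.10 for Fcgrt, -0.78 ± 0.14 for Ifitm10 and -0.62 ± 0.09 for BC021614 (log2(FPKM + 1), ± SE). Spleen-primed minus naive was 0.66, 0.59, 0.56, 0.45 and 0.66 for these genes in that order. In Sema4a, Lmna, Fcgrt and Ifitm10 the larger distance from naive was on the MLN-primed side under every setting that gave a value. In BC021614 both distances differed by less than the SE in the main fit. Over all settings its MLN-primed minus naive difference ran from -1.06 to -0.52 and its spleen-primed minus naive difference from 0.21 to 0.76. Quantile normalisation left Sema4a at 0.20, Fcgrt at 0.23 and BC021614 at 0.27 above naive, and removal of a trend with transcript length left BC021614, the shortest transcript of the 10 at 708 bases, at 0.21. No sign turned under any scaling tried.

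Myeloid cells are also known to hold Sema4a and Fcgrt RNA. Of 6 tested myeloid markers 2 were lower in MLN-primed than spleen-primed cells (Itgam and Cd68), and of 5 tested dendritic cell and MHC class II markers 1 was lower (Itgax; limma, adjusted p under 0.05). The summed FPKM of 10 myeloid markers was 17.4 to 20.0 in MLN-primed, 46.3 to 50.4 in spleen-primed and 9.48 to 40.5 in naive libraries, and most of it in primed cells was Itgam and Cd68. In naive cells Itgam and Cd68 were at only 0.33 and 1.06 FPKM on average, and other markers made up most of the sum. The sums of naive and primed cells thus rest on different genes. Of the 10 myeloid markers Lyz2 was at 0.17, 0.86 and 5.79 FPKM on average in MLN-primed, spleen-primed and naive cells and Csf1r at 0.01, 0.12 and 0.42 FPKM. The sum of 10 dendritic cell and MHC class II markers was 38.5 to 50.2, 96.0 to 106 and 94.6 to 167 FPKM in that order of groups, mostly Itgax in primed cells and Cd74 and class II genes in naive cells. The part of such RNA in Sema4a and Fcgrt was not tested.

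The genes highest in MLN-primed cells had a median MLN-primed minus spleen-primed difference of 1.18 (range 1.14 to 1.84), and those highest in spleen-primed cells one of -1.50 (range -2.04 to -1.23), against a median of 0.03 and a median absolute value of 0.20 over all genes tested. These values follow from the choice of the genes. Relative to their means, the libraries of a group differed by an SD of 0.145% for Sema4a in MLN-primed cells at the least and of 67.0% for Car2 in naive cells at the most.

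In the fit over all 9 libraries 63 of 10185 genes, 0.619%, passed an adjusted p of 0.05 (limma, Benjamini-Hochberg) against naive in both primed groups with opposite signs. Of these, 36 (0.353%) were higher in MLN-primed and 27 (0.265%) higher in spleen-primed cells, while 78.7% of the genes tested passed in MLN-primed minus naive and 75.8% in spleen-primed minus naive (45.5% higher and 33.2% lower in MLN-primed, 43.1% higher and 32.7% lower in spleen-primed cells). The count was 38 without naive 3, 37 without spleen-primed 2, 40 without MLN-primed 3 and 162 with spleen-primed 3 and MLN-primed 1 both left out. The described genes were picked from these values for lying on opposite sides of naive, and both comparisons share the naive libraries. All 10 are among the 63, which is no separate result. Car2 was no longer among them in 9 of 19 other settings, namely with no filter, with spleen-primed 3 and MLN-primed 1 both left out, and without any single library except naive 2 and MLN-primed 1. Fcgrt and Mettl1 were not among them under quantile normalisation, nor BC021614 after removal of the length trend. In 9 of the 10, every library of one primed group was above and every library of the other below all naive libraries, an order that 0.943% of the genes tested had, and Car2 was the exception.

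**Figure D2:**
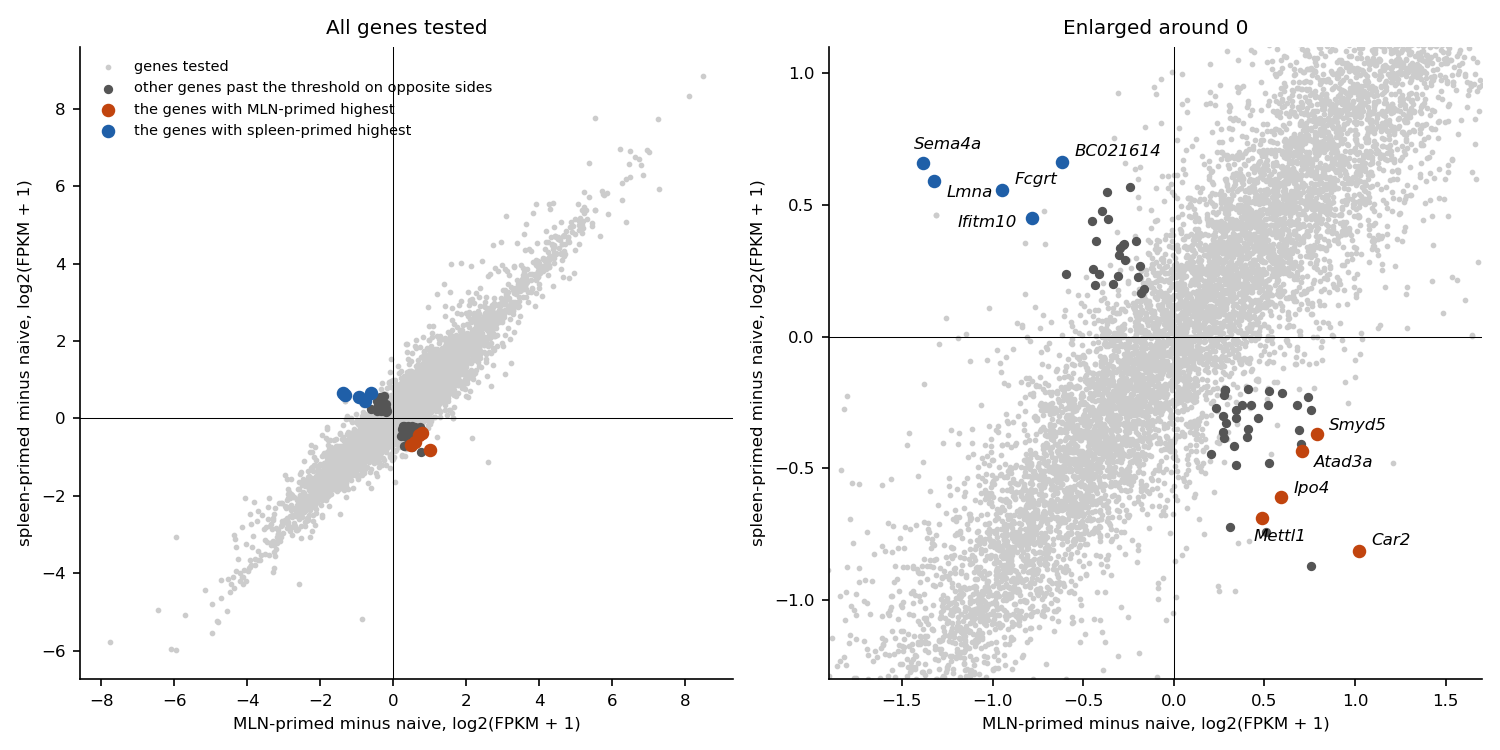
Log2 difference from naive in MLN-primed (x axis) and spleen-primed cells (y axis) for all 10185 genes tested, on the log2(FPKM + 1) scale, with the area around 0 enlarged at the right. Most genes lie along the rising diagonal; the genes with spleen-primed highest (blue) are in the upper left and those with MLN-primed highest (orange) in the lower right, beside the other genes past the threshold on opposite sides (dark grey), most of which lie closer to 0 than the described genes.

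Ordered by the smaller of both distances from naive, the genes highest in spleen-primed cells hold the first 5 places of their direction, from Sema4a at 0.66 to Ifitm10 at 0.45. Next outside were Armc7 (0.44), Crlf2, which encodes a chain of the receptor for the cytokine TSLP (0.40), Lax1, an adaptor that restrains antigen receptor signalling (0.37), Dennd4a (0.36) and the non-coding gene Dleu2 (0.36). Crlf2 was at 13.7 ± 0.688 FPKM in MLN-primed, 26.04 ± 2.49 FPKM in spleen-primed and 18.4 ± 0.670 FPKM in naive cells (mean ± SD, n = 3 each, as for all values given with ± beside FPKM).

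In the other direction Car2 came first at 0.82, followed by Ipo4 (0.59), Mettl1 (0.49), Atad3a (0.43) and Smyd5 (0.37) at places 3, 5, 7 and 10. Between them or next to them stood P2rx7, an ATP-gated channel (0.75), Mybbp1a, a nucleolar protein that binds MYB (0.51), Top1mt, the mitochondrial topoisomerase (0.41), Dgcr6 (0.38) and Apex1, an endonuclease of base excision repair (0.36). P2rx7 was at 2.83 ± 0.359 FPKM in MLN-primed, 0.241 ± 0.0789 FPKM in spleen-primed and 1.27 ± 0.0627 FPKM in naive cells, and Top1mt at 6.52 ± 0.372, 2.51 ± 0.479 and 3.64 ± 0.480 FPKM in the same order of groups. These genes meet the same pattern and are given as a description.

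Profiles over the 9 libraries were also compared by Pearson's r with the mean standardised profile of each direction, as a description over libraries that share the group structure. Closest to the genes highest in MLN-primed cells were Znhit6 (r = 0.985), Apex1 (0.977), Dgcr6 (0.976), Rrp15 (0.972) and Ddx18 (0.972). Znhit6, Rrp15 and Ddx18 are known for roles in making ribosomes, and Ddx18 was at 63.4 ± 1.80 FPKM in MLN-primed, 37.8 ± 2.23 FPKM in spleen-primed and 43.7 ± 2.46 FPKM in naive cells. Closest to the genes highest in spleen-primed cells were Nmi (0.981), Slc25a53 (0.971), the dendritic cell growth factor gene Flt3l (0.970), Sema4f (0.969) and the lysosomal enzyme gene Ctsa (0.968). Spleen-primed minus naive turned negative under quantile normalisation for Nmi (-0.19), Flt3l (-0.07) and Ctsa (-0.20), and after removal of the length trend for Nmi (-0.03) and Flt3l (-0.07).

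Of 189 tested genes of the same families and pathways, 65 were higher and 10 lower in MLN-primed than spleen-primed cells, 39.7%, against 30.4% of all genes tested (17.3% higher and 13.1% lower; limma, adjusted p under 0.05). Against naive, 117 were higher and 32 lower in MLN-primed cells, 78.8% against 78.7% of all genes tested, and 102 were higher and 42 lower in spleen-primed cells, 76.2% against 75.8%, shares near those of all genes. Sema4f and Pus7 were the 2 among the 189 that passed against naive in both primed groups with opposite signs, as 0.619% of all genes tested did, and a count this small says nothing particular to the lists. Where a described gene is set beside its family below, the contrast follows in part from the choice of the described gene.

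In the transfer RNA list, 23 of 45 tested genes were higher in MLN-primed than spleen-primed cells and 0 lower, with a median difference of 0.28 against 0.03 over all genes (limma, adjusted p under 0.05; at an unadjusted p under 0.05, 30 were higher and 1 lower). Wdr4, the obligate partner of METTL1, was at 11.3 ± 0.979 FPKM in MLN-primed, 5.59 ± 0.153 FPKM in spleen-primed and 5.997 ± 0.255 FPKM in naive cells, higher in MLN-primed than spleen-primed cells (0.90 ± 0.08, limma, adjusted p = 9.10e-05). Its spleen-primed minus naive difference was -0.09 ± 0.08 (limma, adjusted p = 0.365), so unlike Mettl1 it did not pass as lower there; the difference between both genes was not tested. The other genes of the list that differed most were Pus7, a pseudouridine synthase (0.94), Nsun2, a cytosine methyltransferase (0.87), and Trmt61a, the catalytic subunit of an adenine methyltransferase (0.86). Trmt61a was at 7.36 ± 0.889 FPKM in MLN-primed, 3.60 ± 0.137 FPKM in spleen-primed and 7.32 ± 0.636 FPKM in naive cells, so its MLN-primed level lay at the naive one.

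Of the importin, exportin and Ran genes, 17 of 29 tested were higher in MLN-primed than spleen-primed cells and 0 lower, with a median of 0.31 (limma, adjusted p under 0.05; at an unadjusted p under 0.05, 19 were higher and 0 lower). The largest differences were those of the Ran-binding protein gene Ranbp1 (0.71), the transfer RNA exporter gene Xpot (0.66), the importin gene Ipo5 (0.60) and the Ran exchange factor gene Rcc1 (0.58). Ipo5 was at 129.5 ± 7.61 FPKM in MLN-primed, 85.2 ± 0.706 FPKM in spleen-primed and 26.01 ± 2.33 FPKM in naive cells. Against naive, 23 genes of the list passed as higher in MLN-primed and 22 in spleen-primed cells, and 0 passed as lower in either, with the same counts at an unadjusted p under 0.05 (limma). Ipo4 was below naive in spleen-primed cells, but it was picked for lying on opposite sides of naive.

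Among genes of mitochondrial nucleoids and the inner membrane, 14 of 35 tested were higher and 1 lower in MLN-primed than spleen-primed cells, with a median of 0.24. Higher were Chchd10 (1.01), the prohibitin gene Phb (0.83) and the protease gene Lonp1 (0.71), and lower was Tspo, which encodes an outer membrane protein that binds cholesterol (-0.85; limma, adjusted p = 7.57e-04). Of 32 SMYD and other SET-domain genes, 4 were higher and 0 lower, 12.5% against 30.4% of all genes tested (limma, adjusted p under 0.05; 6 higher and 1 lower at an unadjusted p under 0.05). Smyd2 led them at 19.0 ± 1.14 FPKM in MLN-primed, 9.20 ± 0.505 FPKM in spleen-primed and 6.11 ± 0.588 FPKM in naive cells, a difference of 0.97, followed by Setd8 (0.57), Suv39h2 (0.39) and Setd6 (0.34). The call of Setd8 ended without spleen-primed 2 (0.46) or MLN-primed 3 (0.44), and that of Setd6 without any single library except naive 1 and naive 3 (0.27 to 0.38). The SE of the model in the SET-domain list ran from 0.06 for Setd3 to 0.43 for Kmt2d. A wide spread makes a call less likely, and its part in the low share was not tested.

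Other lamina genes differed little between the primed groups. Of 20 tested, 2 were higher and 1 lower in MLN-primed cells, with a median of -0.02, while Lmna differed by -1.91. These 3 were the B-type lamin gene Lmnb2 (0.35), the farnesyltransferase subunit gene Fntb (0.34) and Sun2, of the link between nucleus and cytoskeleton (-0.42). None of these calls held when certain libraries were left out, though several differences stayed nearly as large. The call of Lmnb2 ended without spleen-primed 1 (0.31), spleen-primed 2 (0.32), MLN-primed 2 (0.34) or MLN-primed 3 (0.29), and that of Fntb without the same libraries (0.32, 0.35, 0.32 and 0.30). The call of Sun2 ended without naive 3 (-0.42), spleen-primed 2 (-0.44), spleen-primed 3 (-0.32) or MLN-primed 1 (-0.28). Sun2 was at 60.8 ± 10.3 FPKM in MLN-primed, 81.6 ± 11.4 FPKM in spleen-primed and 189.6 ± 5.45 FPKM in naive cells.

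Of 10 tested semaphorin and plexin genes, 2 were higher and 3 lower in MLN-primed than spleen-primed cells. Nrp1, a coreceptor that binds semaphorin 4A on mouse regulatory T cells, was at 4.38 ± 0.442 FPKM in MLN-primed, 16.6 ± 1.32 FPKM in spleen-primed and 0.821 ± 0.133 FPKM in naive cells, lower in MLN-primed than spleen-primed cells (-1.71 ± 0.10, limma, adjusted p = 1.08e-05) and above naive in both. Sema4f, of the same class as Sema4a, shared its order at 4.26 ± 0.289, 8.38 ± 0.385 and 6.96 ± 0.447 FPKM in MLN-primed, spleen-primed and naive cells. The plexin gene Plxnc1 differed by -0.46 and Sema6b by 0.34; the call of Sema6b ended without spleen-primed 2 (0.30) and with a pseudocount of 0.1, and that of Plxnc1 without both spleen-primed 3 and MLN-primed 1 (-0.28).

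B2m, whose product is the light chain of the neonatal Fc receptor and of MHC class I, shared only part of the pattern of Fcgrt. It was at 1574 ± 61.7 FPKM in MLN-primed, 2703 ± 93.8 FPKM in spleen-primed and 3587 ± 115 FPKM in naive cells. Like Fcgrt it was lower in MLN-primed than spleen-primed cells (-0.78 ± 0.07, limma, adjusted p = 7.92e-05). Unlike Fcgrt it was lower than naive in both primed groups, though spleen-primed minus naive turned to 0.25 under quantile normalisation. Of 5 tested genes of that list 1 was higher and 3 lower in MLN-primed than spleen-primed cells. The inhibitory Fc receptor gene Fcgr2b was at 0.495 ± 0.0906 FPKM in MLN-primed, 3.44 ± 0.224 FPKM in spleen-primed and 0.176 ± 0.140 FPKM in naive cells (-1.57), Trim21 was lower (-0.43) and Fcrl1 higher (0.94). Fcgr2b reached 1 FPKM only in spleen-primed libraries and Fcrl1 only in MLN-primed libraries. Both passed the filter through the group in which they were high, so their calls and the count above are a description. The call of Trim21 ended without spleen-primed 2 (-0.41) or MLN-primed 2 (-0.40).

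Carbonic anhydrases went in both directions. Of 10 tested genes of acid-base transport, 2 were higher and 1 lower in MLN-primed than spleen-primed cells. Car12, a membrane-bound carbonic anhydrase, was at 3.12 ± 0.224 FPKM in MLN-primed, 1.13 ± 0.197 FPKM in spleen-primed and 0.766 ± 0.119 FPKM in naive cells (0.95), and the mitochondrial Car5b at 11.7 ± 0.925, 20.3 ± 1.19 and 0.0351 ± 0.0171 FPKM in that order of groups (-0.75). The lactate transporter gene Slc16a3 was higher (0.44), a call that ended without spleen-primed 2 (0.45), spleen-primed 3 (0.33), MLN-primed 1 (0.33) or MLN-primed 3 (0.46). Of 3 tested IFITM and CD225-domain genes Ifitm1 was lower, at 22.3 ± 4.63 FPKM in MLN-primed, 49.6 ± 11.9 FPKM in spleen-primed and 0.163 ± 0.0665 FPKM in naive cells (-1.11 ± 0.19, limma, adjusted p = 0.00199), and unlike Ifitm10 it stood above naive in both primed groups.

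**Figure D3:**
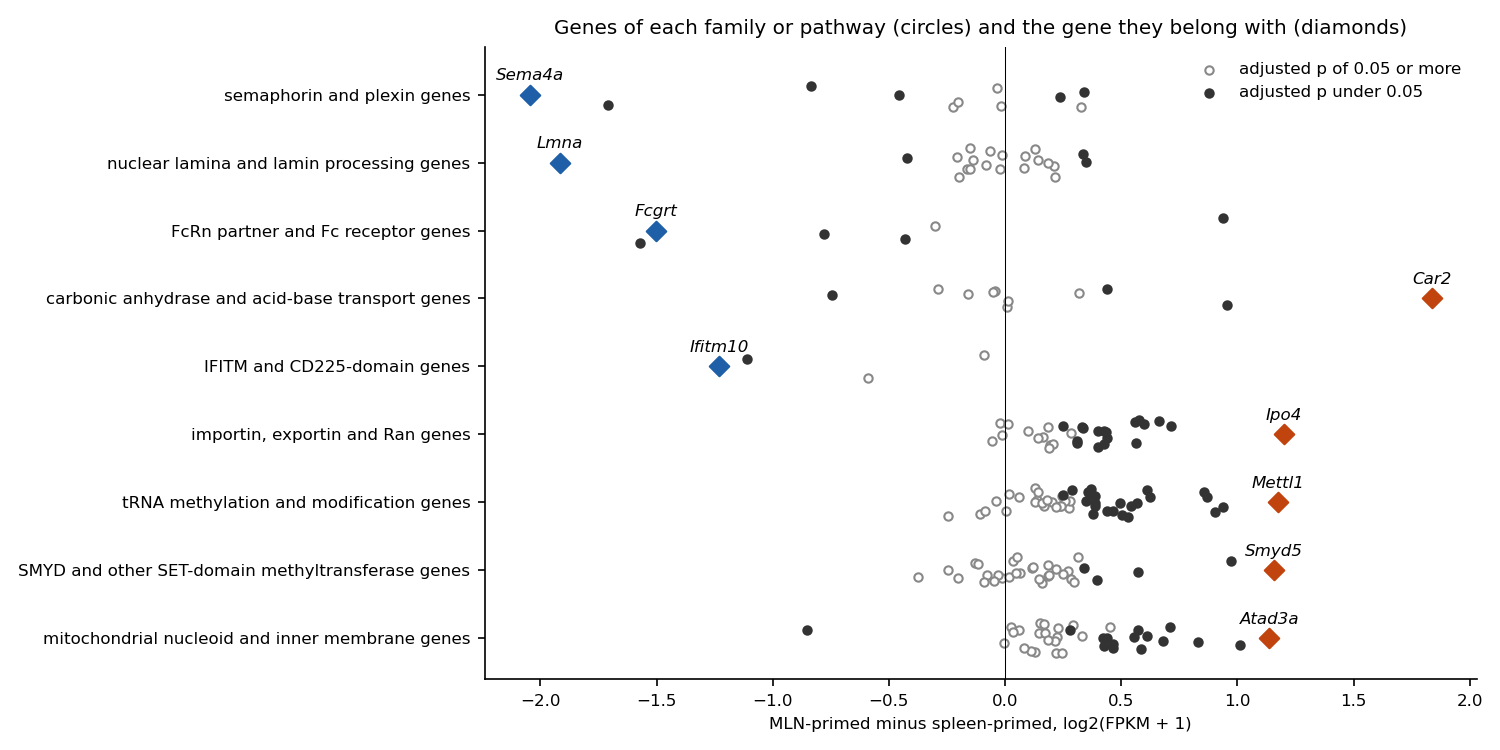
MLN-primed minus spleen-primed difference on the log2(FPKM + 1) scale (x axis) for each tested gene of 9 families or pathways (rows); circles are the listed genes, filled at an adjusted p under 0.05 (limma), and diamonds the described gene of that row (orange, MLN-primed highest; blue, spleen-primed highest). Importin, transfer RNA and mitochondrial genes lie mostly right of 0, with medians of 0.31, 0.28 and 0.24, while lamina genes other than Lmna lie near 0.

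Sema4a and Lmna are close neighbours in the genome. In the mouse assembly GRCm38.p6, with RefSeq gene ends, Sema4a lies on chromosome 3 from 88435959 to 88461182 and Lmna from 88481148 to 88509932, both on the minus strand and protein-coding, with 19965 bases between them and no other tested gene there. Tested genes on their outer sides did not share the pattern. Slc25a44 was at 9.68 ± 0.292 FPKM in MLN-primed, 10.9 ± 0.988 FPKM in spleen-primed and 10.5 ± 0.885 FPKM in naive cells, and Mex3a, at 0.328, 0.264 and 1.83 FPKM on average in that order of groups, was lower than naive in both. Mex3a reached 1 FPKM only in naive libraries. Car2 lies on the same chromosome from 14886269 to 14900770, far from both.

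The other genes are spread over the genome. Fcgrt lies on chromosome 7 from 45092993 to 45103822 and Ifitm10 on the same chromosome from 142325835 to 142373779, BC021614 on chromosome 19 from 4057470 to 4059605, Ipo4 on chromosome 14 from 55625400 to 55635868, Mettl1 on chromosome 10 from 127041549 to 127046365, Smyd5 on chromosome 6 from 85431976 to 85446429 and Atad3a on chromosome 4 from 155740640 to 155761124. Values are per gene, not per exon or isoform. Mettl1 shares 466 bases with the opposite-strand gene Eef1akmt3, which the table lists under its gene ID at a mean of 0.0230 FPKM in MLN-primed and at 0 in spleen-primed and naive libraries. BC021614 is a relative of the gene next to it, Gstp2, at 47.0 ± 4.86 FPKM in MLN-primed, 45.1 ± 3.06 FPKM in spleen-primed and 47.0 ± 1.32 FPKM in naive cells. How shared reads of related genes were counted is not given in the labels.

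Of 13 tested neighbours described within 100 kb, 5 differed between the primed groups, 38.5% against 30.4% of all genes tested, 2 higher and 3 lower in MLN-primed cells (limma, adjusted p under 0.05). In 4 the sign was that of the gene beside them. Tsfm, a mitochondrial elongation factor gene next to Mettl1, differed by 0.61, the mitochondrial ribosomal protein gene Mrpl20 next to Atad3a by 0.38, Cdk2ap2 next to BC021614 by -0.43 and Ctsd next to Ifitm10 by -1.28. The call of Mrpl20 ended under median-of-ratios scaling (0.32). Irf9, of the interferon signalling complex, went against its neighbour Ipo4 (-0.93), at 11.3 ± 0.190 FPKM in MLN-primed, 22.4 ± 1.14 FPKM in spleen-primed and 42.3 ± 7.60 FPKM in naive cells.

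Ctsd, the gene of the lysosomal protease cathepsin D, ends 2130 bases before Ifitm10 on the same strand. It was at 385 ± 19.3 FPKM in MLN-primed, 939 ± 65.5 FPKM in spleen-primed and 254 ± 4.90 FPKM in naive cells, levels far above those of Ifitm10, and the part of Ctsd in the Ifitm10 values was not tested. Naive cells were lowest in Ctsd, except that MLN-primed minus naive turned to -0.000439 under quantile normalisation, and in the middle in Ifitm10. None of the 13 neighbours passed against naive in both primed groups with opposite signs, at an adjusted or an unadjusted p under 0.05 (limma), as 0.619% of all genes tested did at the adjusted threshold, so a count of 0 among 13 says nothing particular to them. Those that did not differ between the primed groups at the threshold were Tm9sf1 (-0.21), which lies 96 bases from Ipo4, Pradc1 (0.06), 355 bases from Smyd5, Rcn3 (-0.09), 670 bases from Fcgrt, Ssu72 (-0.01), March9 (0.21), Gstp2 (0.06), Slc25a44 (-0.15) and Mex3a (0.07).

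**Figure D4:**
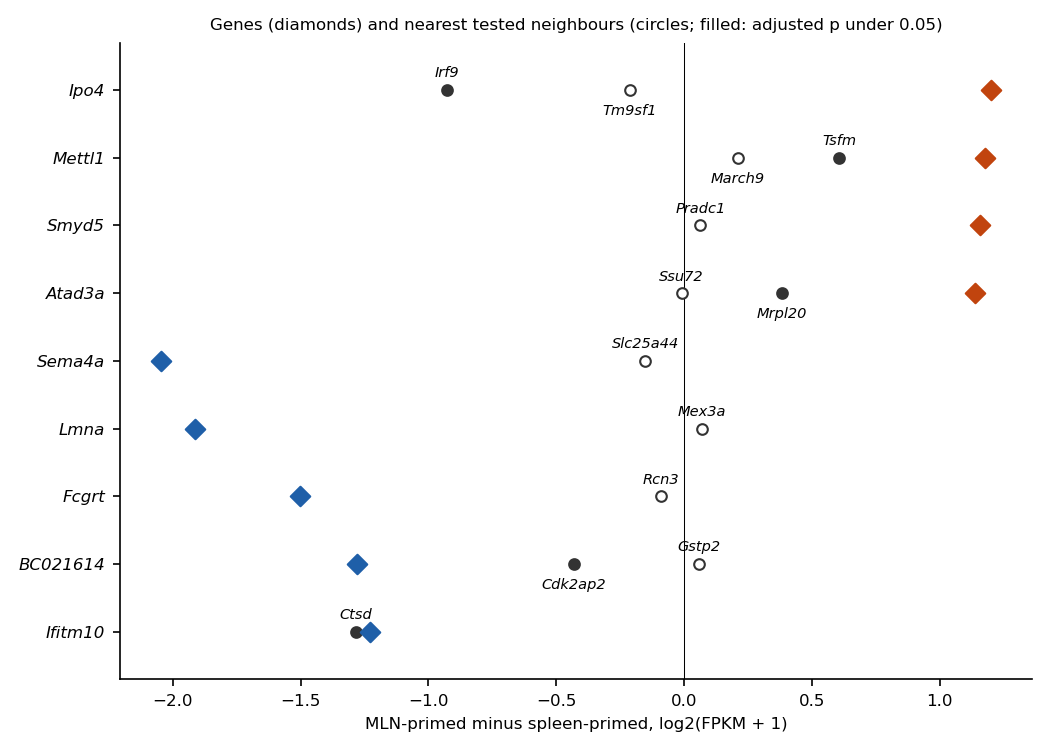
MLN-primed minus spleen-primed difference on the log2(FPKM + 1) scale (x axis) for 9 of the described genes (diamonds; orange, MLN-primed highest; blue, spleen-primed highest) and their nearest tested neighbours within 100 kb (circles, filled at an adjusted p under 0.05, limma). Neighbours lie nearer to 0 than the diamond of their row except Ctsd, at -1.28 beside Ifitm10 at -1.23.

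The libraries had FPKM totals of 613322 to 720410, and 9469 to 9667 genes reached 1 FPKM. Read depth is unknown, since FPKM do not keep it. CD8 T cell markers were high in all libraries, with a summed FPKM of 8 genes of 2310 to 2470 in MLN-primed, 3449 to 3473 in spleen-primed and 4367 to 4618 in naive libraries. For 8 B cell markers the sums were 11.9 to 15.8, 7.82 to 9.26 and 11.3 to 15.1 FPKM, nearly all Cd79b, with Pax5 at or near 0. Stromal, endothelial and epithelial markers, 11 in all, summed to 4.06 to 5.63, 4.05 to 5.49 and 38.3 to 45.1 FPKM, mostly Pecam1 in naive cells. Their part in the described levels was not tested.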

How the data were processed

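The authors deposited FPKM per gene and library, and the submitters' processing notes name TopHat, Cufflinks and mm10 for them. Their versions and strand setting are not given in those notes. RNA was extracted with a column kit and made into stranded mRNA libraries, per the labels' protocols. A second deposited table was byte for byte the same and was not used. FPKM divide by length and library total, so abundant genes weigh on the rest, and depth is unknown.

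Of 24067 rows, 131 without a symbol (0.0479% of the FPKM) were left out. The 10185 genes that reached 1 FPKM in 3 or more libraries were fitted as log2(FPKM + 1) over all 9 libraries by limma version 3.58.1 under R 4.3.3 (variance trend on, two-sided, Benjamini-Hochberg over all genes tested, threshold 0.05), without further scaling. The fit was tested on simulated data. Other steps used Python 3.11.15, numpy 2.4.6, pandas 2.3.3 and matplotlib 3.10.9.

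The genes, family lists, motifs and tests were chosen with earlier results of these data known, and the genes were picked on these values, so they carry no p. Named besides them are, per family list, up to 4 genes past the threshold between the primed groups with the largest difference, Wdr4 and B2m, the nearest tested neighbour on each side within 100 kb, up to 5 further genes per direction past the threshold on both sides of naive, and the 5 genes per direction of at least 5 FPKM with the closest profile. Clone-named models and receptor segments were left out there. A neighbouring gene and a marker are not reported here. All 10 genes matched RefSeq (GRCm38.p6) by gene ID. Transcript lengths came from GENCODE M21, for 99.4% of the genes tested. Alternatives were a pseudocount of 0.1, other filters, median-of-ratios and quantile scaling, no variance trend, fewer libraries, a length correction and the replicate number as a block.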

Additional observations from a re-analysis of the deposited data

Results flagged for a closer look

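In 4 of the genes highest in MLN-primed cells (Ipo4, Mettl1, Smyd5 and Atad3a) and in 5 of those highest in spleen-primed cells (Sema4a, Lmna, Fcgrt, BC021614 and Ifitm10), every library of one primed group lay above all naive libraries and every library of the other below them. Of all genes tested, 0.452% had this order with MLN-primed highest and 0.491% with spleen-primed highest. The genes were picked for primed groups on opposite sides of naive, so the difference between both responses was not tested for them. Of the 10 other genes named for lying past the threshold on both sides of naive, 7 had the same separation of libraries (P2rx7, Top1mt, Dgcr6, Apex1, Armc7, Crlf2 and Lax1), which was likewise not tested. Such a separation was found in 0.943% of all genes tested, and these 10 were named for passing on both sides.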

How the results depend on the processing

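All described genes with a value stayed on opposite sides of naive under the 19 alternatives run; Ifitm10 had no value with a filter of 5 FPKM. Not all stayed past the threshold on both sides: Car2 did not in 9 of the 19, Fcgrt and Mettl1 under quantile normalisation, and BC021614 after removal of the length trend. Of 567 recomputed differences of the described genes 38 moved by more than the spread between replicates, under the pseudocount of 0.1, either scaling or the length correction, and the cause was not tested. The count of genes past the threshold on opposite sides of naive was 63, 37 to 70 when 1 library was left out and 162 with spleen-primed 3 and MLN-primed 1 both left out. That fit tests fewer libraries, and the cause of the rise was not tested. Both libraries stood apart from their group in the trend with transcript length. Its slope per doubling of length was -0.003 in spleen-primed 3, against -0.133 and -0.110 in spleen-primed 1 and 2. In MLN-primed 1 it was -0.166, against -0.013 and -0.050 in MLN-primed 2 and 3. In naive 1, 2 and 3 the slope was 0.185, 0.109 and 0.181, above that of every primed library. The trend thus also separated naive from both primed groups. Signs that turned under quantile normalisation were those of spleen-primed minus naive for B2m (0.25), Nsun2 (-0.31), Cdk2ap2 (-0.48), Ssu72 (-0.15), Nmi (-0.19), Flt3l (-0.0720) and Ctsa (-0.20), and of MLN-primed minus naive for Ctsd (-0.000439) and Ssu72 (-0.23). After removal of the length trend they were those of spleen-primed minus naive for Cdk2ap2 (-0.22), Nmi (-0.0286) and Flt3l (-0.0719) and of MLN-primed minus naive for Dennd4a (0.0385). Median-of-ratios scaling moved the median MLN-primed minus naive difference of all genes to 0.013 from 0.145, and the share of higher calls between the primed groups to 46.1% from 56.9%. Quantile normalisation moved that share to 48.1% from 57.8% in MLN-primed minus naive and to 46.6% from 56.8% in spleen-primed minus naive. The replicate block gave 73 genes on opposite sides of naive and 3382 between the primed groups, against 3093. Same-numbered libraries of different groups correlated at -0.241 to 0.645 in their deviations and others at -0.698 to 0.512. These ranges overlap and cannot decide whether the numbers pair libraries. The main fit did not pair them. Depth is unknown, and genes near 1 FPKM, such as Lmna, Ifitm10 and P2rx7, are the least certain.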
